A study of Danio rerio with 18 samples.

Results

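Excision, mismatch and bypass repair genes encode the proteins that remove damaged or mispaired bases from DNA, or that let replication pass them. The genes described here were chosen by name, from 44 zebrafish gene symbols in 4 classes, and were found by an equal symbol, ignoring case, in tables of 32057 genes. Of the 44 symbols, 43 matched, and they gave 44 genes. The symbol tdg.1 matched only without its suffix, to 2 genes that both carry the symbol TDG, and cetn2 matched no row. The classes held 14 genes of nucleotide excision repair, 18 of base excision repair, 5 of mismatch repair and 7 of lesion bypass, direct reversal and nucleotide supply. All 44 genes passed the filter on low values (at least 1 TPM in at least 2 libraries), and none was at 0 in any library.

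In nucleotide excision repair, proteins that recognise a distorted helix or a stalled RNA polymerase recruit helicases and nucleases, which cut out a short stretch of the damaged strand. In base excision repair a glycosylase removes a single altered base, such as those oxidised by radiation, and an endonuclease, a polymerase and a ligase close the gap. Mismatch repair corrects errors of replication, translesion polymerases copy across lesions that stop the replicative polymerases, and ribonucleotide reductase supplies the nucleotides for all of these. In humans several of the genes, among them DDB2, XPC and RRM2B, are known targets of the transcription factor p53.

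Transcripts were sequenced from whole zebrafish embryos that received X-rays at 30 h after fertilization, to 30 Gy at 5 Gy per min. The groups were puma -/- noxa -/- p21 -/- embryos, called the triple mutant (untreated, 1 h, 2 h and 3 h after irradiation), p53 -/- embryos, called the p53 mutant (untreated, 1 h and 3 h), and embryos with wild type p53 (3 h and untreated). Each of the 9 groups had 2 libraries, 18 in all. The triple mutant is labelled as mutated in the p53 targets puma and noxa, which act in cell death, and p21, which acts in arrest of the cell cycle, and not in p53. The alleles, the ages at collection and whether the 2 libraries of a group came from separate clutches are not given in the labels. Irradiated and untreated embryos may thus also differ in age, and a p value here speaks only to the spread between libraries, which may be technical. In whole embryos, fewer cells of a type and less RNA per cell cannot be told apart.

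Values were TPM, a measure of transcript abundance per gene length with the same total in every library. They keep no counts of reads, so sequencing depth is unknown. Between 14057 and 17419 genes per library reached 1 TPM. Replicate 1 of the p53 mutant at 1 h, of the untreated p53 mutant and of the untreated wild type stood apart. They held 304, 631 and 392 TPM of 5.8S ribosomal RNA, and their partners 52.8, 13.6 and 16.8 TPM. All 12 other libraries are listed at 0 for it. In these 3 pairs 41, 37 and 37 of the 44 repair genes were lower in the library rich in 5.8S. The share of all genes that were lower there was not counted, but gaps of this size were not particular to repair genes. The median gap, in either direction, was 0.673, 0.294 and 0.539 for the repair genes on the log2 scale. For all genes it was 0.807, 0.394 and 0.519. The summed level of the repair genes was 661 against 1248 TPM in the p53 mutant at 1 h, 878 against 1168 TPM in the untreated p53 mutant and 704 against 1162 TPM in the untreated wild type. In the other groups the sums lay between 772 and 1266 TPM, with a median gap between libraries of 0.0712 to 0.20 on the log2 scale. Irradiation at 3 h and 5.8S content thus differ together in both of these genotypes. As a check of genotype, the p53 target mdm2 had 764 ± 59.5 TPM (SD, n = 2) at 3 h in the triple mutant against 54.0 ± 1.1 TPM untreated, 53.2 ± 5.64 against 39.0 ± 18.6 TPM in the p53 mutant, and 1015 ± 16.9 against 43.7 ± 16.8 TPM in the wild type. Transcripts of the mutated targets do not check the triple mutant, since bbc3 (puma) had 34.6 ± 1.09 TPM at 3 h against 0.650 ± 0.0990 TPM untreated and cdkn1a (p21) 58.9 ± 9.79 against 2.73 ± 1.15 TPM. Neural, muscle, blood and epidermal marker genes were detected in every group, and some sums moved with irradiation. The 8 muscle markers summed to 3608 to 5241 TPM at 3 h in the p53 mutant against 8035 to 8546 TPM untreated, with none called. Among them myog lay above its untreated libraries, myod1 overlapped, and the others lay below. In the triple mutant the muscle sum was higher at 3 h, at 4866 to 5514 against 3800 to 4151 TPM. In the p53 mutant at 3 h the neural sum was higher (959 to 1004 against 639 to 811 TPM) and the blood sum lower (2484 to 2546 against 2991 to 3844 TPM). The blood markers did not move as one there. The abundant hbae3 lay below its untreated libraries, alas2 lay above, and hbae1.1 and gata1a overlapped. The 7 epidermis markers summed to 14190 to 14827 TPM at 3 h in the triple mutant against 20109 to 20676 TPM untreated. Of them, 5 were called lower within the table, where 6.82% of all genes were called. In the wild type 1 of them, epcam, fell by 1.1 on the log2 scale (adjusted p = 0.00321), where 3.78% of all genes were called. There tp63 also lay below its untreated libraries at 3 h, krt5 and krt8 lay above theirs, and krt4, cyt1 and cldne overlapped. The epidermis sums overlapped too, at 22189 to 24063 against 16228 to 27665 TPM. In the p53 mutant the sum was higher at 3 h, at 21185 to 22730 against 18763 to 19234 TPM, and so was epcam. The part of these markers in the changes of the repair genes was not tested.

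The most abundant of the repair genes were apex1, the main endonuclease for sites that have lost a base, and rad23b, the partner of the damage sensor Xpc, with means over the 18 libraries of 174 and 151 TPM. The ribonucleotide reductase subunit gene rrm2b followed with 63.2 TPM and the glycosylase gene TDG (ENSDARG00000013004) with 58.2 TPM. At the other end, the mismatch gene mlh3, the glycosylase gene mpg, the bypass polymerase gene polh and the mismatch sensor gene msh3 averaged 1.31, 1.32, 1.39 and 1.95 TPM. Fold changes are on the log2(TPM + 1) scale, which understates the changes of such low genes.

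At 3 h in the p53 mutant, 1 of the 44 genes rose, ddb2, and none fell, against 0.458% of all 18575 genes tested that were called in either direction (limma over the 9 groups, two-sided, Benjamini-Hochberg adjusted p under 0.05 over all genes). At 3 h in the wild type 5 genes rose and none fell, against 3.78% of all genes. They were ddb2, ercc1, neil1, rev1 and rrm2b. No repair gene was called in the p53 mutant at 1 h (0.00538% of all genes), in the triple mutant at 1 h (0.0808%), 2 h (0.221%) or 3 h (0.748%), or between 3 h and 1 h in the triple mutant (0.377%). At an unadjusted p under 0.05 the triple mutant had 1 repair gene at 1 h (2.81% of all genes), 6 at 2 h (7.68%), 4 at 3 h (4.96%) and 1 between 3 h and 1 h (3.14%). The p53 mutant had 0 at 1 h (1.09% of all genes) and 9 at 3 h (10.0%), and the wild type had 13 (17.7%). Each comparison with untreated embryos of a genotype uses the same untreated libraries.

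The fit over 9 groups takes the same spread of a gene in every group, and the groups were unlike in this. Over all genes the median gap between the untreated libraries was 0.519 in the wild type, 0.394 in the p53 mutant and 0.0991 in the triple mutant (log2 scale). A separate fit within the table of each genotype lets the libraries of that genotype set the spread. This fit has fewer residual degrees of freedom, fewest in the wild type and most in the triple mutant. Its counts of calls can therefore not be compared between genotypes. In the triple mutant the fit within the table called 0 repair genes at 1 h (2.71% of all genes), 18 at 2 h (24.3%), 5 at 3 h (6.82%) and 2 between 3 h and 1 h (2.62%). It called none in the p53 mutant at 1 h (0% of all genes) or 3 h (0.00568%), or at 3 h in the wild type (0.521%). By position alone, both irradiated libraries lay above both untreated ones for 16 of 44 repair genes in the triple mutant at 1 h (20.9% of all genes), 32 at 2 h (53.3%) and 28 at 3 h (39.3%). This held for 2 genes in the p53 mutant at 1 h (2.89% of all genes) and 28 at 3 h (36.4%), and for 23 in the wild type at 3 h (36.0%). Both irradiated libraries lay below both untreated ones for 1 repair gene at 1 h (20.3% of all genes), 4 at 2 h (17.2%) and 3 at 3 h (20.9%) in the triple mutant. In the p53 mutant this was so for 1 gene at 1 h (5.81% of all genes) and 0 at 3 h (9.96%), and in the wild type for 0 (6.78%).

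The whole set lay slightly above 0 in most comparisons, and so did the table as a whole. The median change of the 44 genes was 0.16 on the log2 scale in the triple mutant at 3 h, 0.32 in the p53 mutant at 3 h and 0.39 in the wild type at 3 h, and the median of all genes was 0.07, 0.17 and 0.23. After median-of-ratios scaling, the medians of the repair genes were 0.11, 0.17 and 0.13 and those of all genes 0.01, 0.01 and -0.01. The number of repair genes above 0 was then 35 in the triple mutant, 31 in the p53 mutant and 27 in the wild type, where it had been 37, 42 and 41. The share of all genes above 0 was then 51.3%, 51.9% and 49.0%, where it had been 61.8%, 71.7% and 75.0%. Directions of single small changes are therefore relative to that shift. Over all genes, the calls at 3 h were 111 higher and 28 lower in the triple mutant (155 and 69 after that scaling), 43 and 42 in the p53 mutant (61 and 100) and 578 and 124 in the wild type (297 and 293).

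**Figure D1:**
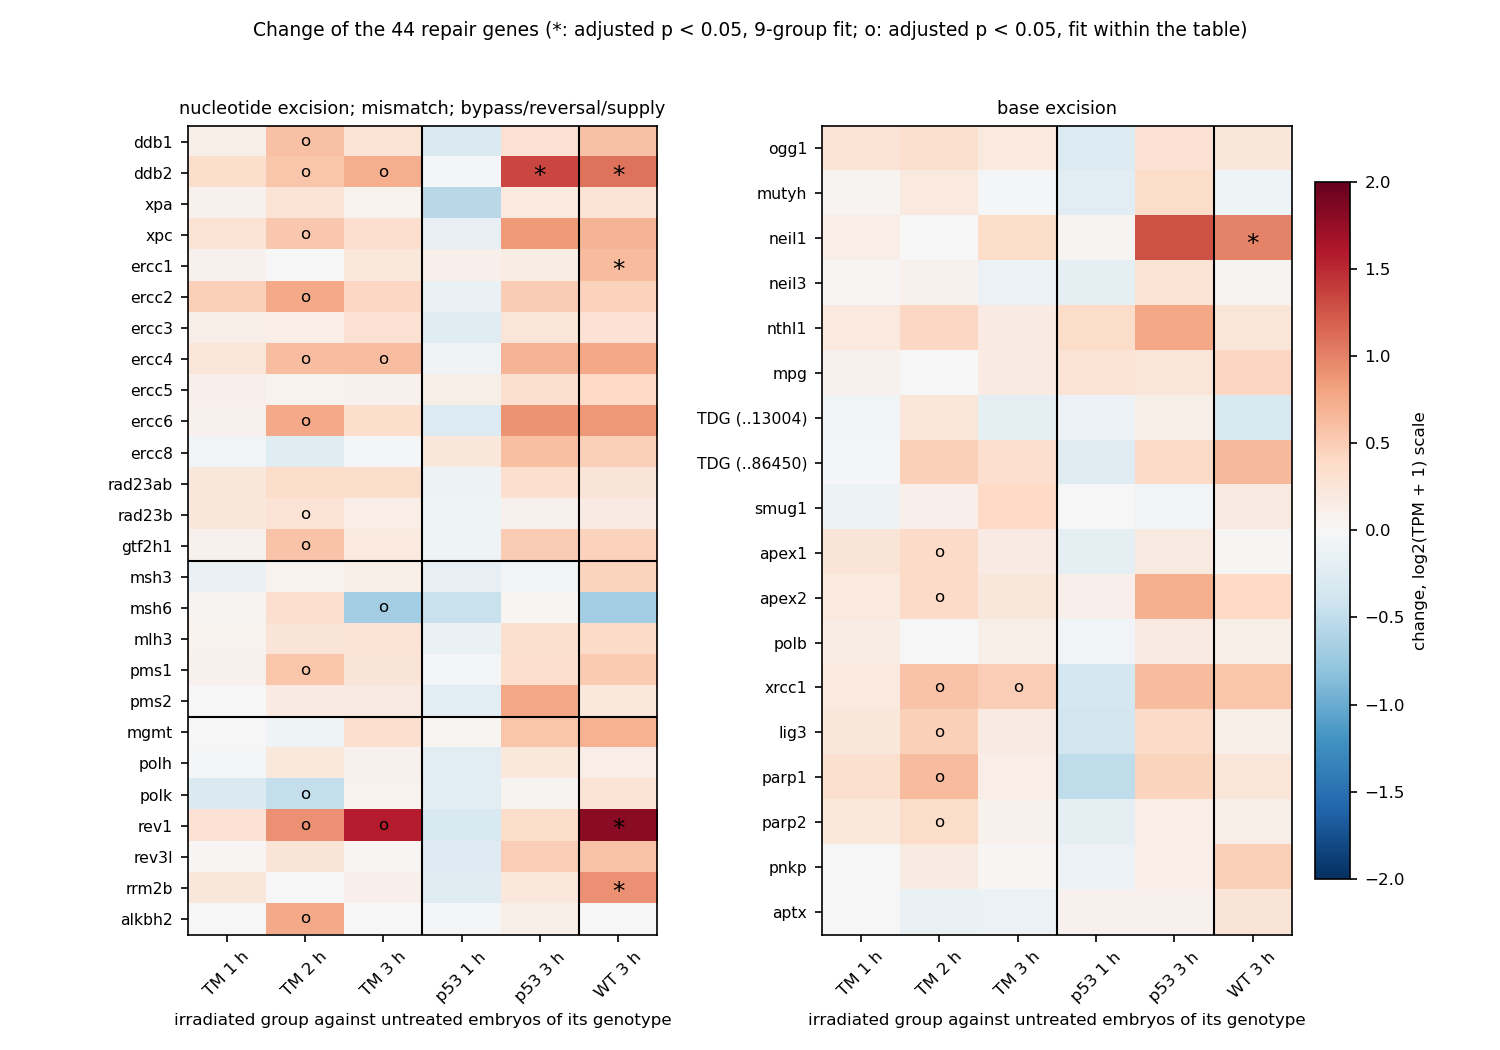
Change of each of the 44 repair genes (rows, by class) in each irradiated group against the untreated embryos of its genotype (columns; TM, triple mutant), as colour on the log2(TPM + 1) scale. Stars mark the 6 calls of the fit over 9 groups, in the p53 mutant and the wild type at 3 h, and circles mark calls of the fit within a table, all in the triple mutant at 2 h and 3 h.

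Among the genes of nucleotide excision repair, the largest rise was that of ddb2 (ENSDARG00000041140), the damage-binding subunit that finds lesions in chromatin. It had 9.84 and 9.72 TPM in untreated triple mutants, 13.1 and 12.4 TPM at 1 h, 14.2 and 15.3 TPM at 2 h and 17.0 and 16.5 TPM at 3 h. The p53 mutant had 10.6 and 15.5 TPM untreated, 11.1 and 14.5 TPM at 1 h and 33.5 and 34.0 TPM at 3 h. Wild type embryos had 22.3 and 23.5 TPM at 3 h against 8.51 and 12.4 TPM untreated. In each genotype both 3 h libraries lay above both untreated ones, and in the triple mutant so did all libraries at 1 h and 2 h. Its change at 3 h in the triple mutant was 0.72, which missed the threshold over 9 groups (SE 0.205, adjusted p = 0.340) and passed it within the table (adjusted p = 0.00197). It rose by 1.33 in the p53 mutant (SE 0.205, adjusted p = 0.0143) and by 1.08 in the wild type (SE 0.205, adjusted p = 0.0140). The calls in the p53 mutant and the wild type were lost in the fit within the table (adjusted p = 1.00 and 0.347), without either 3 h library and without the untreated library rich in 5.8S of that genotype. Across the 26 alternative fits the change of ddb2 was 1.08 to 1.58 in the p53 mutant and 0.79 to 1.33 in the wild type. These include the fits without the 3 libraries rich in 5.8S and without their 3 partners. The difference between the responses, coded as wild type minus p53 mutant, was -0.25, with a 95% confidence interval of -0.88 to 0.39.

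The nuclease that cuts the damaged strand on the upstream side of a lesion is made of Ercc1 and Ercc4. The ercc1 gene (ENSDARG00000031680) had 31.8 and 33.8 TPM at 3 h in triple mutants against 29.2 and 27.2 TPM untreated. It had 24.2 and 24.8 TPM at 3 h in p53 mutants against 22.1 and 21.8 TPM untreated, and 27.0 and 31.6 TPM at 3 h in the wild type against 19.9 and 17.2 TPM untreated. The groups did not overlap in any genotype. For the p53 mutant the change was 0.15 and turned to -0.04 under median-of-ratios scaling. The rise was 0.63 in the wild type (SE 0.155, adjusted p = 0.0466), and its call was lost in 18 of 26 alternative fits, up to an adjusted p of 0.750. These include median-of-ratios scaling, the replicate block and the fit within the table (adjusted p = 0.559). They also include leaving out any library of the triple mutant, of the p53 mutant at 3 h or untreated, or of the wild type at 3 h, or replicate 2 of the untreated wild type. Its partner ercc4 had 4.11 and 3.85 TPM in untreated triple mutants, 4.26 and 5.54 TPM at 1 h, 6.31 and 6.90 TPM at 2 h and 6.69 and 6.62 TPM at 3 h. At 3 h it had 11.2 and 11.3 TPM in p53 mutants against 6.33 and 7.04 TPM untreated, and 8.82 and 10.2 TPM in the wild type against 4.20 and 6.29 TPM untreated. At 3 h no groups overlapped, and the changes were 0.62 in the triple mutant (adjusted p = 0.602, and 0.0246 within the table), 0.68 in the p53 mutant (adjusted p = 0.254) and 0.77 in the wild type (adjusted p = 0.0687).

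The gene ercc6, whose product couples repair to stalled RNA polymerase, had 6.61 and 7.17 TPM at 3 h in triple mutants against 4.99 and 5.39 TPM untreated, after 8.70 and 10.1 TPM at 2 h. It had 16.7 and 18.3 TPM at 3 h in p53 mutants against 7.2 and 11.0 TPM untreated, and 17.7 and 16.6 TPM at 3 h in the wild type against 5.85 and 13.4 TPM untreated. At 3 h the irradiated libraries were the higher ones in each genotype. The untreated pairs of the p53 mutant and the wild type were far apart, and their changes of 0.90 (SE 0.412, adjusted p = 0.499) and 0.87 (SE 0.412, adjusted p = 0.304) missed the threshold. Over the class, 1 of 14 genes was called higher at 3 h in the p53 mutant (0.458% of all genes called) and 2 in wild type embryos (3.78%). All 14 had a change above 0 in the p53 mutant (71.7% of all genes) and in the wild type (75.0%), with medians of 0.42 and 0.47. Under median-of-ratios scaling 12 and 13 of them stayed above 0, where 51.9% and 49.0% of all genes were above 0. The remaining genes, ddb1, xpa, xpc, the helicase genes ercc2 and ercc3 and their partner gtf2h1, the nuclease gene ercc5, ercc8, rad23ab and rad23b, had changes at 3 h of -0.04 to 0.41 in the triple mutant, 0.09 to 0.85 in the p53 mutant and 0.17 to 0.68 in the wild type, and none was called at 3 h.

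Base excision repair held a called rise for neil1 (ENSDARG00000018061), a glycosylase for oxidised pyrimidines. It had 15.6 and 14.9 TPM in untreated triple mutants, 19.6 and 14.7 TPM at 1 h, 15.2 and 15.0 TPM at 2 h and 18.7 and 21.2 TPM at 3 h. The p53 mutant had 13.1 and 18.6 TPM untreated, 13.5 and 19.8 TPM at 1 h and 38.9 and 40.1 TPM at 3 h, and the wild type 30.1 and 31.5 TPM at 3 h against 11.7 and 19.2 TPM untreated. At 3 h no irradiated library overlapped the untreated ones in any genotype, and the ratio of the mean TPM to that of untreated embryos was 1.31 in the triple mutant, 2.49 in the p53 mutant and 2.00 in the wild type. The change was 1.28 in the p53 mutant (SE 0.248, adjusted p = 0.0521) and 0.99 in the wild type (SE 0.248, adjusted p = 0.0494), so the gene lay just outside the threshold in the p53 mutant and just inside it in the wild type. The call in the wild type was lost in 17 of 26 alternatives, up to an adjusted p of 0.449 within the table. Among them were the fits that left out any library of the triple mutant, of the p53 mutant at 3 h or of the wild type at 3 h, or replicate 1 of the untreated wild type. For the p53 mutant 9 of 26 alternatives gave a call. The response of the triple mutant minus that of the p53 mutant was -0.92 (95% confidence interval -1.69 to -0.16), which did not pass adjustment over all genes (adjusted p = 0.725).

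The scaffold gene xrcc1, which holds the repair enzymes at strand breaks, had 23.9 and 23.8 TPM in untreated triple mutants, 25.8 and 29.6 TPM at 1 h, 35.1 and 36.7 TPM at 2 h and 34.3 and 33.5 TPM at 3 h. It had 51.88 and 52.97 TPM at 3 h in p53 mutants against 29.6 and 37.9 TPM untreated, and 42.2 and 46.1 TPM at 3 h in the wild type against 22.3 and 39.6 TPM untreated. The 3 h libraries were the higher ones in each genotype. Its change at 3 h was not called over 9 groups and passed the test within the triple mutant table (0.49, SE 0.0921, adjusted p = 0.0140). The glycosylase gene TDG (ENSDARG00000086450) had 8.38 and 7.69 TPM at 3 h in triple mutants against 5.94 and 6.32 TPM untreated. It had 18.2 and 17.8 TPM in p53 mutants against 10.7 and 17.2 TPM, and 16.0 and 20.2 TPM in the wild type against 7.54 and 16.3 TPM. Its groups overlapped in the wild type and not in the mutants, and no change was called. The other TDG gene (ENSDARG00000013004) had lower values at 3 h than untreated in the triple mutant and a change of -0.30 in the wild type that was called under median-of-ratios scaling (-0.59, adjusted p = 0.0230). Both genes carry the symbol TDG. Whether reads were split between them by the counting was not tested, which leaves the values of either TDG gene uncertain.

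Of the 18 base excision genes, none was called in the mutants and 1 was called higher in the wild type (3.78% of all genes called) by the fit over 9 groups. Their changes at 3 h ran from -0.18 to 0.49 in the triple mutant (median 0.16), from -0.06 to 1.28 in the p53 mutant (median 0.29) and from -0.30 to 0.99 in the wild type (median 0.23). In the wild type the class median was -0.04 under median-of-ratios scaling, and 6 of the 18 genes stayed above 0 (49.0% of all genes were above 0). Under the same scaling it was 0.14 in the p53 mutant, with 11 genes above 0 (51.9% of all genes). In the triple mutant it was 0.08, with 13 genes above 0 (51.3% of all genes). The abundant apex1 had 163 ± 7.85 TPM at 3 h against 170 ± 75.6 TPM untreated in the wild type (SD, n = 2), a difference well within the gap between the untreated libraries of 116 and 223 TPM. The glycosylase genes ogg1, mutyh, neil3, nthl1, mpg and smug1, the polymerase gene polb, the ligase gene lig3, the break sensor genes parp1 and parp2, and the end-processing genes pnkp, aptx and apex2 were not called at 3 h in any genotype.

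**Figure D2:**
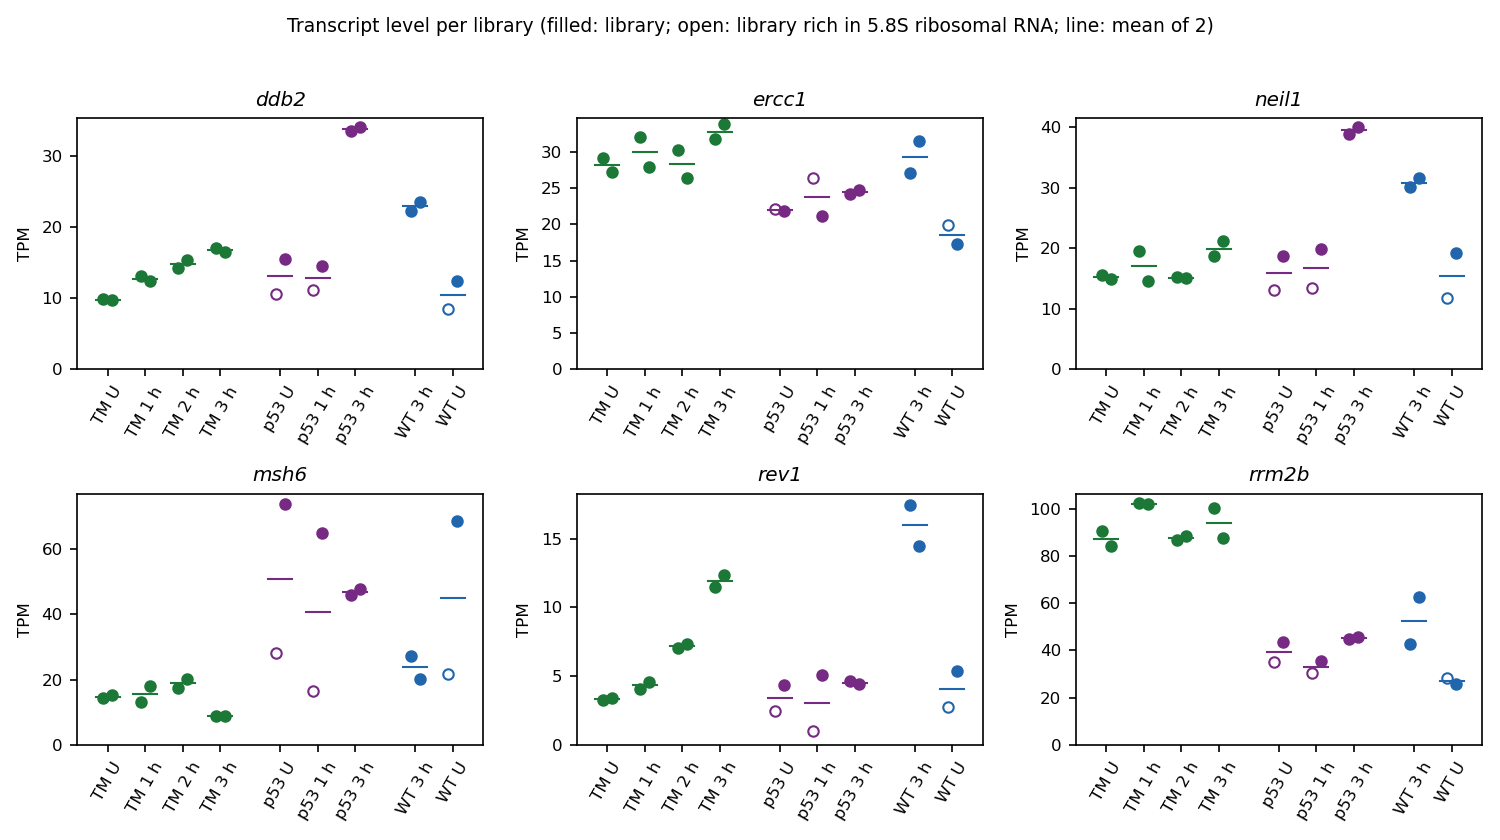
TPM in each library for 6 repair genes, in triple mutant (TM), p53 mutant (p53) and wild type (WT) embryos, untreated (U) or 1 to 3 h after irradiation; open points are the 3 libraries rich in 5.8S ribosomal RNA and lines are means of 2 libraries. In the ddb2 and neil1 panels the 3 h libraries of the p53 mutant and the wild type stand clear of the untreated ones, rev1 reaches 11.5 to 17.5 TPM at 3 h in the triple mutant and the wild type, and msh6 of the triple mutant is lowest at 3 h.

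No mismatch repair gene was called in any comparison over 9 groups, and the largest changes of the class at 3 h in the wild type were those of msh6, pms1 and msh3. The mismatch sensor gene msh6 had 14.4 and 15.1 TPM in untreated triple mutants, 13.0 and 18.0 TPM at 1 h, 17.5 and 20.2 TPM at 2 h and 8.81 and 8.72 TPM at 3 h. Both libraries at 3 h lay below all of the others of that genotype. The change of -0.69 missed the threshold over 9 groups (SE 0.611, adjusted p = 1.00) and passed it within the table against untreated embryos (SE 0.143, adjusted p = 0.0208) and against 1 h (-0.74, adjusted p = 0.0257). In p53 mutants msh6 had 45.9 and 47.7 TPM at 3 h against 28.1 and 73.8 TPM untreated, and in the wild type 27.2 and 20.3 TPM at 3 h against 21.6 and 68.6 TPM untreated. These groups overlapped, and the direction in the wild type depended on which untreated library was kept. The change was -1.50 without the libraries rich in 5.8S and 0.12 without their partners, and in the p53 mutant it was -0.65 and 0.72.

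In the same groups a list of 24 replication and mitosis genes moved as well. Of the 23 tested, 6 were called lower at 3 h in the triple mutant, 4 in the p53 mutant and 7 in the wild type. None was called higher. Of all genes, 0.748%, 0.458% and 3.78% were called in either direction, in that order. The list was not uniformly lower. Both 3 h libraries of mcm7 and of cdc45 lay above both untreated ones in each genotype, without a call. The summed level of the list was 647 to 662 TPM at 3 h in the triple mutant against 1093 to 1124 TPM untreated. It was 1395 to 1415 against 1613 to 2009 TPM in the p53 mutant and 925 to 967 against 1168 to 1804 TPM in the wild type. The part of these genes in the change of msh6 was not tested. The other sensor gene, msh3, had 1.65 and 2.19 TPM at 3 h in triple mutants against 1.70 and 1.65 TPM untreated. It had 2.11 and 1.63 against 1.86 and 2.08 TPM in p53 mutants, and 2.97 and 3.16 against 1.52 and 2.58 TPM in the wild type. The groups overlapped in the mutants and not in the wild type, where the change was 0.44 (adjusted p = 0.429). The gene pms1, of the family whose products act after mismatch recognition, had 2.72 and 3.19 TPM at 3 h in triple mutants against 2.20 and 2.44 TPM untreated. It had 3.96 and 3.61 against 2.36 and 3.22 TPM in p53 mutants, and 3.45 and 3.85 against 1.69 and 2.88 TPM in the wild type. Its irradiated libraries were the higher ones in each genotype, with a change of 0.52 in the wild type that was not called (adjusted p = 0.241). Its relatives pms2 and mlh3 had changes of 0.78 and 0.32 in the p53 mutant and 0.21 and 0.38 in the wild type, neither called.

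The largest change of all 44 genes was that of rev1 (ENSDARG00000018296), a translesion polymerase that also serves as the docking site of the other bypass polymerases. In the triple mutant its level was higher at each later time, with 3.27 and 3.43 TPM untreated, 4.08 and 4.58 TPM at 1 h, 7.01 and 7.33 TPM at 2 h and 11.5 and 12.4 TPM at 3 h. The p53 mutant had 2.42 and 4.35 TPM untreated, 0.98 and 5.11 TPM at 1 h and 4.62 and 4.44 TPM at 3 h. Wild type embryos had 17.5 and 14.5 TPM at 3 h against 2.72 and 5.35 TPM untreated. The mean at 3 h was thus 3.56-fold that of untreated embryos in the triple mutant, 1.34-fold in the p53 mutant and 3.96-fold in the wild type, and the irradiated p53 mutants lay just above their higher untreated library.

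In the triple mutant the change of rev1 of 1.57 at 3 h had an adjusted p of 0.263 over 9 groups, was called there without either library of the p53 mutant at 1 h, and had an adjusted p of 2.88e-05 within the table (SE 0.114). There it was 0.91 at 2 h (adjusted p = 0.00178) and 1.28 between 3 h and 1 h (adjusted p = 0.000193). The change in the p53 mutant was 0.37 (SE 0.422, adjusted p = 0.854). The rise was 1.80 in the wild type (SE 0.422, adjusted p = 0.0381). The call was lost in 15 of 26 alternatives, up to an adjusted p of 0.181. Among these were a pseudocount of 0.1 TPM and the fit within the table (adjusted p = 0.115). So were the fits that left out any library of the triple mutant, of the p53 mutant at 3 h or of the wild type at 3 h, or replicate 1 of the untreated wild type. It held under median-of-ratios scaling and without either set of 5.8S libraries. The response of the triple mutant minus that of the p53 mutant was 1.20 (95% confidence interval -0.10 to 2.50, adjusted p = 0.999), and that of the wild type minus the p53 mutant was 1.43 (0.13 to 2.73, adjusted p = 0.974). Without the 3 libraries rich in 5.8S these differences were 1.52 (adjusted p = 0.00136) and 1.37 (adjusted p = 0.00373), and without their 3 partners 0.88 (adjusted p = 0.00974) and 1.49 (adjusted p = 0.00346). Both of these fits rest on a lone untreated library in the p53 mutant and in the wild type, which is assumed to vary like the other groups.

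The gene rrm2b (ENSDARG00000033367) encodes the small subunit of ribonucleotide reductase that supplies nucleotides outside of replication. It had 90.7 and 84.1 TPM in untreated triple mutants, 103 and 102 TPM at 1 h, 86.7 and 88.4 TPM at 2 h and 101 and 87.7 TPM at 3 h. The p53 mutant had 35.1 and 43.8 TPM untreated, 30.5 and 35.6 TPM at 1 h and 45.1 and 45.8 TPM at 3 h, and the wild type 42.5 and 62.5 TPM at 3 h against 28.2 and 25.8 TPM untreated. The 3 h and untreated groups overlapped in the triple mutant and not in the other genotypes. The gene rose by 0.91 in the wild type (SE 0.178, adjusted p = 0.0162), and the call was lost under median-of-ratios scaling (0.61, adjusted p = 0.287), within the table (adjusted p = 0.462) and without replicate 2 of either wild type group. The response of the triple mutant minus that of the wild type was -0.81 (95% confidence interval -1.36 to -0.26, adjusted p = 0.562). It was called without the 3 libraries rich in 5.8S (-0.87, adjusted p = 0.0358) and without their 3 partners (-0.75, adjusted p = 0.0412), and in none of the other alternatives, where the adjusted p reached 1.00.

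The direct reversal gene mgmt, whose product takes alkyl groups off guanine, had 9.64 and 8.15 TPM at 3 h in triple mutants against 6.76 and 6.80 TPM untreated. It had 5.59 and 5.04 against 4.27 and 2.52 TPM in p53 mutants, and 4.32 and 5.72 against 4.02 and 1.74 TPM in the wild type. Irradiated libraries were higher in each genotype without a call, and the change in the wild type was 0.69 (adjusted p = 0.222). The bypass polymerase genes polh, polk and rev3l had changes at 3 h of 0.04 to 0.09 in the triple mutant, 0.06 to 0.49 in the p53 mutant and 0.13 to 0.57 in the wild type, and none was called. The change of alkbh2, whose product reverses alkylation by oxidation, was -0.01 in the triple mutant, 0.11 in the p53 mutant and 0.01 in the wild type. Of the 7 genes of this class, 2 were called higher in the wild type at 3 h (3.78% of all genes called).

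**Figure D3:**
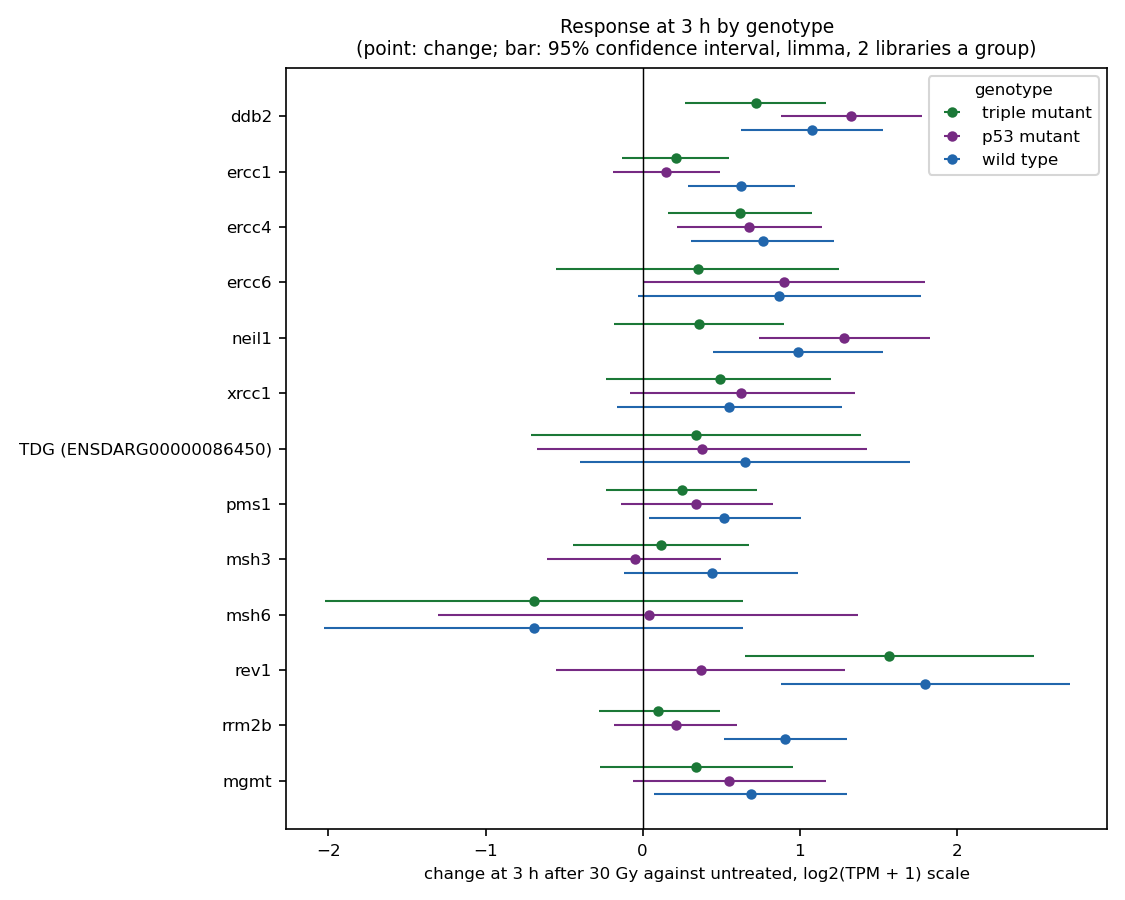
Change at 3 h against untreated embryos (x axis, log2(TPM + 1) scale, with 95% confidence intervals from limma) for 13 repair genes in the triple mutant, the p53 mutant and the wild type. For rev1 the triple mutant and the wild type stand at 1.57 and 1.80 and the p53 mutant at 0.37, while ddb2 and neil1 are furthest right in the p53 mutant.

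Set side by side, ddb2 rose in the p53 mutant as well as in the wild type, and the other 4 genes called in the wild type had changes of 1.28 (neil1), 0.37 (rev1), 0.21 (rrm2b) and 0.15 (ercc1) in the p53 mutant. In the triple mutant at 3 h the changes of ddb2, neil1, rev1, rrm2b and ercc1 were 0.72, 0.36, 1.57, 0.10 and 0.21. No difference between the responses passed the test over all genes. Of the 44 genes, 0 were called for the wild type minus the p53 mutant (0.382% of all genes), 0 for the triple mutant minus the p53 mutant (0.280%) and 0 for the triple mutant minus the wild type (0.0592%), with 2 in each at an unadjusted p under 0.05 (4.69%, 5.32% and 5.95% of all genes). Without the libraries rich in 5.8S the counts were 3, 3 and 5, and without their partners 1, 10 and 11, where 7.67%, 3.83% and 15.5%, and 1.99%, 23.4% and 28.7% of all genes were called.

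The triple mutant was followed at 3 times. In the fit to its own libraries 17 repair genes rose and 1 fell at 2 h. The 8 nucleotide excision genes among them were ddb1, ddb2, xpc, ercc2, ercc4, ercc6, rad23b and gtf2h1, with changes of 0.28 to 0.76. The 6 base excision genes were apex1, apex2, xrcc1, lig3, parp1 and parp2, with changes of 0.36 to 0.63, and pms1, rev1 and alkbh2 rose by 0.55, 0.91 and 0.75. The same fit called 4077 of all 16806 genes at 2 h, 3097 of them higher. Over the 3 times the change was highest at 2 h in 26 of the 44 repair genes (59.1%), against 56.7% of all genes, and at 3 h in 14 (31.8%), against 27.3%.

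Genes with a transient course were picked after their values were seen. The TFIIH helicase gene ercc2 had 5.90 and 6.27 TPM untreated, 8.29 and 9.47 TPM at 1 h, 10.6 and 11.4 TPM at 2 h and 8.17 and 8.61 TPM at 3 h, with all irradiated libraries above the untreated ones. The level of alkbh2 was 1.04 and 1.15 TPM untreated, 0.79 and 1.41 TPM at 1 h, 2.51 and 2.52 TPM at 2 h and 1.16 and 1.00 TPM at 3 h, so only the 2 h libraries stood out (0.75 within the table, adjusted p = 0.0144). The bypass polymerase gene polk fell at 2 h, with 2.00 and 2.06 TPM untreated, 1.31 and 1.67 TPM at 1 h, 1.20 and 1.16 TPM at 2 h and 2.25 and 2.12 TPM at 3 h (-0.47 at 2 h within the table, adjusted p = 0.0320). At 3 h the table fit called higher ddb2, ercc4, xrcc1 and rev1, and lower msh6.

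**Figure D4:**
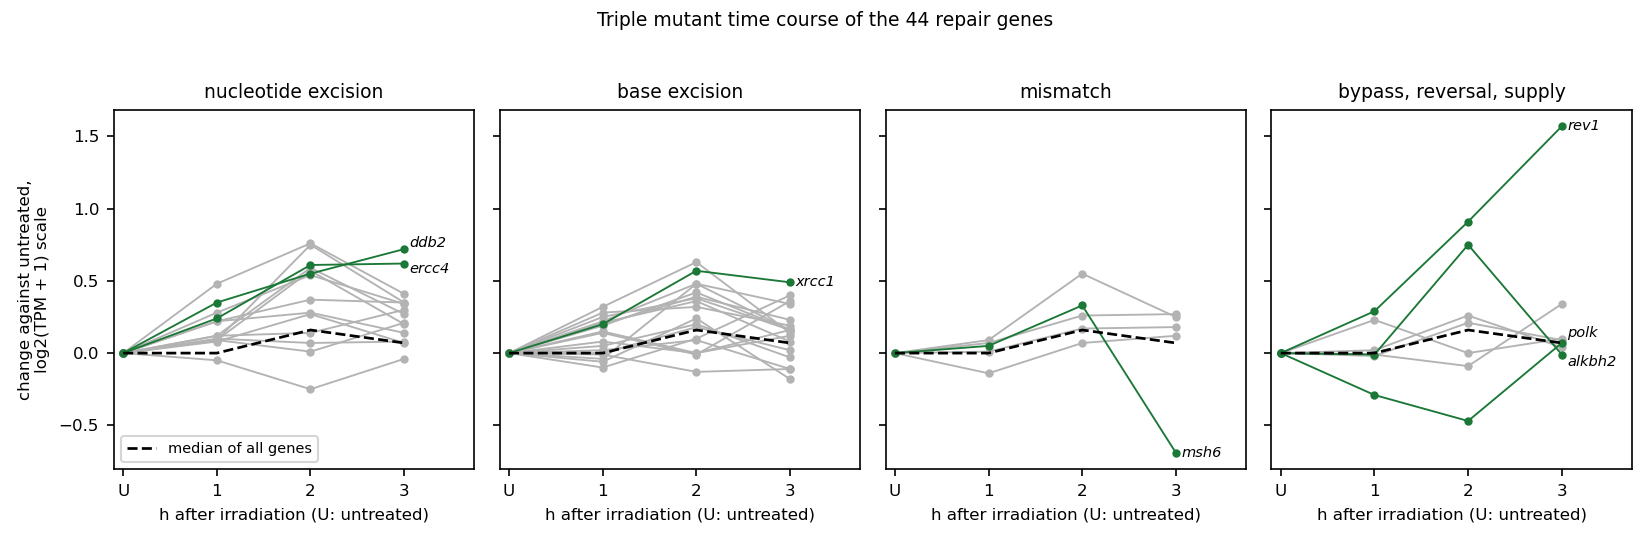
Change of each repair gene in the triple mutant at 1, 2 and 3 h after irradiation (x axis, U: untreated, set to 0) on the log2(TPM + 1) scale, in a panel per class; the dashed line is the median of all genes tested. The rev1 line climbs through 0.91 at 2 h to 1.57 at 3 h, while most other lines are highest at 2 h, as is the median of all genes at 0.16.

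Another 56 genes in the same pathways were chosen by their known roles, with earlier results of these data known, and 52 were tested. At 3 h 1 was called higher in the triple mutant (0.748% of all genes called in either direction), none in the p53 mutant (0.458%) and 3 in the wild type (3.78%). None was called lower. The largest change was that of parp3, a relative of the break sensor parp1. It had 26.0 and 27.2 TPM at 3 h in triple mutants against 5.55 and 5.66 TPM untreated. It had 8.01 and 7.42 against 3.95 and 6.96 TPM in p53 mutants, and 46.4 and 44.1 against 5.91 and 10.3 TPM in the wild type. It rose by 2.06 in the triple mutant (SE 0.349, adjusted p = 0.0132) and by 2.39 in the wild type (SE 0.349, adjusted p = 0.00271). No difference between the responses of the genotypes was called for parp3 over 9 groups. In the wild type the translesion polymerase gene poli rose by 0.91 (SE 0.181, adjusted p = 0.0173) and primpol, whose product restarts stalled forks, by 0.69 (SE 0.163, adjusted p = 0.0383). At 3 h poli had 8.52 and 8.43 against 3.56 and 4.57 TPM untreated. It had 7.08 and 6.69 against 4.32 and 4.3 TPM in p53 mutants, and 3.34 and 3.1 against 2.64 and 2.0 TPM in triple mutants. For primpol these were 37.3 and 39.5 against 20.4 and 26.7 TPM, 40.5 and 36.8 against 23.3 and 24.65 TPM, and 28.9 and 29.3 against 17.1 and 17.7 TPM. No groups overlapped. Neither gene was called in a mutant over 9 groups, nor in the wild type by the fit within the table. The medians of the 52 tested genes at 3 h were 0.15 in the triple mutant, 0.34 in the p53 mutant and 0.35 in the wild type, beside 0.07, 0.17 and 0.23 for all genes.

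Untreated levels are given side by side with no test, since each genotype has its own table and the effects of genotype and table cannot be told apart. The level of rrm2b was 87.4 ± 4.66 TPM in the triple mutant, 39.4 ± 6.10 TPM in the p53 mutant and 27.0 ± 1.66 TPM in the wild type (SD, n = 2 each). That of mgmt was 6.78 ± 0.0283, 3.39 ± 1.24 and 2.88 ± 1.61 TPM in the same order. Lower values in the triple mutant were those of msh6, with 14.8 ± 0.509 TPM against 51.0 ± 32.4 TPM in the p53 mutant and 45.1 ± 33.2 TPM in the wild type, and of alkbh2, with 1.09 TPM against 4.00 and 4.01 TPM. Over the 44 genes, 17 were lower and 6 higher in both untreated triple mutant libraries than in every untreated library of the other genotypes. Of all genes, 34.1% were lower and 14.5% higher in this sense. The means of ddb2, neil1 and rev1 in the 3 untreated groups were 9.78 to 13.1 TPM for ddb2, 15.2 to 15.9 TPM for neil1 and 3.35 to 4.04 TPM for rev1.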

How the data were processed

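Values were taken from TPM tables that the authors deposited, with a table for each genotype. The submitters' processing notes list the build GRCz11 and, with no role, RSEM 1.3.3, STAR 2.7.3a, R 4.3.3, DESeq2 1.42.1 and HTSeq 0.12.3, and the labels state poly(A) selection and 2 read lengths, not given per library. Symbols came from a gene name table. Log2(TPM + 1) values of the 18575 genes that reached 1 TPM in 2 or more libraries were fitted in 1 model over 9 groups with limma 3.58.1 in R 4.3.3. The spread followed a mean trend (residual degrees of freedom 9, prior 2.87). There were 10 two-sided contrasts with Benjamini-Hochberg adjustment over all genes. Separate fits within a table used the genes that pass the filter in it. The fitting was tested on simulated data with independent noise and the same spread of a gene in every library. That check does not cover groups whose libraries lie further apart, such as those with a library rich in 5.8S. Alternatives were the pseudocount, the filter, median-of-ratios scaling (factors 0.647 to 1.33), a replicate block, the fit within the table, and leaving out each library or the 3 libraries with high or low 5.8S content.

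Values per library are given for genes called in a comparison and for the 3 genes of each class with the largest change at 3 h in the wild type; others are given by range, with the most abundant as examples. The repair genes and the lists were chosen with earlier results of these data known. Coordinates and sequences were not used here. Intervals are 95% confidence intervals.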

Additional observations from a re-analysis of the deposited data

Results flagged for a closer look

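The glycosylase gene neil3 was set apart because all libraries moved in opposite directions in the mutants at 3 h. It had 8.57 and 8.55 TPM at 3 h in triple mutants against 9.10 and 9.51 TPM untreated, and 16.4 and 17.1 TPM at 3 h in p53 mutants against 13.2 and 14.2 TPM untreated. The difference between the responses, triple mutant minus p53 mutant, was -0.38 on the log2 scale (95% confidence interval -1.09 to 0.34) and did not pass the limma test (adjusted p = 1.00). The groups of 2 libraries are too small to mark a single library as an outlier.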

How the results depend on the processing

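Counts of repair genes called moved by more than 1.5 times as follows. In the triple mutant (0 called) they were, at 2 h, 18 within the table (24.3% of all genes), 19 without the 3 libraries rich in 5.8S (20.9%) and 19 without their 3 partners (21%). At 3 h they were 5 within the table (6.82%), 5 without either set (5.43% and 5.54%) and 1 after median-of-ratios scaling (1.21%). Between 3 h and 1 h they were 2 within the table (2.62%), 3 without either set (2.41% and 2.42%) and 1 after that scaling (0.775%). In the p53 mutant at 3 h (1 called) they were 2 with a pseudocount of 5 TPM (0.549%), 2 after median-of-ratios scaling (0.867%), 0 within the table (0.00568%), and 12 and 25 without the 5.8S-rich libraries and their partners (8.07% and 45.7% of all genes). At 1 h (0 called) they were 16 without the partners, all lower (33.1% of all genes). At 3 h in the wild type (5 called) they were 3 with a pseudocount of 0.1 TPM (3.5%), 3 after median-of-ratios scaling (2 higher, 1 lower; 3.18%), 0 within the table (0.521%), 15 without the 5.8S-rich libraries and 35 without their partners, where 28.4% and 57.2% of all genes were called. The differences between responses gave 3 and 1 (wild type minus p53 mutant), 3 and 10 (triple mutant minus p53 mutant) and 5 and 11 (triple mutant minus wild type) without the 5.8S-rich libraries and without their partners, where 7.67% and 1.99%, 3.83% and 23.4%, and 15.5% and 28.7% of all genes were called. Leaving out 1 library gave 0 to 1 calls in the triple mutant at 2 h, at 3 h and between 3 h and 1 h (1 without either p53 mutant library at 1 h, where up to 0.614%, 1.06% and 0.721% of all genes were called). In the p53 mutant it gave 0 to 9 at 1 h (9 without its replicate 2, where 26.5% of all genes were called) and 0 to 2 at 3 h (2 with up to 1.25% of all genes). In the wild type it gave 0 to 8 (0 without replicate 2 at 3 h, with 0.958% of all genes, and 8 without either p53 mutant library at 1 h, with 10.2%). The number of libraries limits all of these, and where a fit leaves 1 library in a group, that library is assumed to vary like the other groups.

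The following directions turned. After median-of-ratios scaling ercc1 was -0.04 and msh6 -0.16 in the p53 mutant at 3 h, and the differences of rev1 (triple mutant minus wild type) and rrm2b (triple mutant minus p53 mutant) were 0.01. Without the untreated library rich in 5.8S, alone or with the other such libraries, these differences were 0.16 and 0.05, and msh6 in the p53 mutant was -0.65. Without replicate 2 of the untreated wild type msh6 was 0.12, also without all the partners, and the differences of neil1 and ddb2 (wild type minus p53 mutant) were 0.04 and 0.00, the last also 0.00 without replicate 1 of the untreated p53 mutant. With single libraries left out, the ranges were -0.63 to 0.04 for neil1 and -0.50 to 0.00 for ddb2 in the difference wild type minus p53 mutant, -0.61 to 0.16 for rev1, -0.26 to 0.05 for rrm2b, -1.50 to 0.12 for msh6 in the wild type and -0.65 to 0.72 in the p53 mutant, and -0.17 to 0.07 for msh3 in the p53 mutant and -0.01 to 0.25 in the triple mutant. Without replicate 2 at 3 h, msh3 was 0.07 in the p53 mutant and -0.01 in the triple mutant. The cause of these shifts was not tested.

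The labels give only a number to a replicate. Deviations of same-numbered libraries within a genotype correlated at -0.339 to 0.789. Such correlations cannot settle whether the numbers pair the samples, and the main fit took no pairing. The groups with a library rich in 5.8S, which is replicate 1 in each, correlated at 0.789 (p53 mutant at 1 h and untreated), 0.704 (p53 mutant at 1 h and untreated wild type) and 0.626 (both untreated groups). With the replicate block, 2 repair genes were called in the p53 mutant at 3 h and 4 in the wild type, and 0 in the other comparisons.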
